A study of Danio rerio with 4 samples.

Results

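Calcium-handling genes of the cardiomyocyte were examined in zebrafish ventricles 4 days after cardiac injury, in ccn2a mutants (ccn2a-/-) and wild type. The genes were chosen by name: atp2a2a, atp2a2b, hrc, ryr2b, casq2, asph, jph2 and slc8a1a. An exact match on the gene symbol found 7 rows among the 19875 genes of the deposited table. A pair of those rows carried the symbol atp2a2a. One of the pair, ENSDARG00000005122 on chromosome 21, has atp2a2b as its UniProt gene name and is called atp2a2b here, while ENSDARG00000029439 on chromosome 8 is called atp2a2a. The gene hrc (ENSDARG00000045947) stood in the table under the clone name si:ch211-173d10.1 and was found by its gene ID, so that all 8 listed genes had 1 row each. All 8 passed the low-value filter, which kept genes averaging at least 10 over the libraries.

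Messenger RNA of whole ventricles, with atrium and bulbus arteriosus dissected away, was sequenced in 2 libraries from ccn2a-/- fish and 2 from wild type, all injured. The product of ccn2a belongs to the CCN proteins, which are secreted into the extracellular matrix. The labels give "dpci" as the time unit and do not state the lesion in ccn2a, the age of the fish, an uninjured control, or whether a library was 1 heart or a pool. The p-values therefore measure the spread between these libraries, which may be technical.

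Each heartbeat is driven by a rise and fall of calcium in the cytosol of the cardiomyocyte. Calcium entering through channels of the plasma membrane opens ryanodine receptors, which release more of it from the sarcoplasmic reticulum, where calsequestrin holds it. Relaxation follows as the SERCA pump returns calcium to the reticulum and the sodium-calcium exchanger carries it out of the cell. In mammals, loss of SERCA activity is a common feature of the failing heart.

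Values are read counts per gene that the authors divided by a size factor per library and rounded, here called normalised read counts. Approximate depth was between 17.2 and 21.5 M reads per library. The targeted gene ccn2a (symbol ctgfa in the table) was at 3070 and 1473 in the mutants (replicates 1 and 2, in this order throughout) against 4737 and 4411 in wild type, a weak check of the labels. Across genes, mutant replicate 2 and wild-type replicate 1 were the most alike pair of libraries (Pearson r = 0.970), and mutant replicate 1 and wild-type replicate 2 stood farthest apart (r = 0.897). Genes are not independent replicates. Transcripts of the mitochondrial genome made up between 13.35% and 14.67% of 3 libraries and 7.66% of wild-type replicate 2. The test ran over 16730 genes, and limma called 0 of them at an adjusted p of 0.05 (smallest 0.207), a background of 0.0%. An unadjusted p under 0.05 was found for 2145 genes, or 12.8%, with limma and for 2746 with limma voom, which also called 0 after adjustment.

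The tissue label was checked against marker genes. Of 18 cardiomyocyte genes, none was at 0 and 15 were higher in the mutants. Of these, 12 had no overlap between genotypes, where 26.6% of all genes tested were higher in this way. The other 3 were lower, 2 of them with no overlap (25.7% of all genes), among them actn2b at 25669 and 36704 against 47615 and 58445. The summed normalised read count of the 18 genes was 1675340 to 1861171 in the mutants and 1177699 to 1427698 in wild type. The myosin light-chain gene myl7, expressed throughout the zebrafish myocardium, was at 362054 and 305628 in the mutants and at 257710 and 139544 in wild type. Erythrocyte genes were higher at 8 of 8 (sums 229257 to 260054 against 122545 to 159056) and endothelial genes at 6 of 6 (21781 to 21946 against 15318 to 17032). Macrophage genes were lower at 5 of 6 (10177 to 11174 against 13940 to 14194) and neutrophil genes at 4 of 5 (402 to 682 against 716 to 736). Smooth muscle and bulbus genes were lower at 4 of 6 (7704 to 9786 against 9932 to 13372), and epicardial genes at 4 of 5 (8287 to 9013 against 9015 to 9991). Of the genes on the atrial list, the myosin gene myh6 was at 4585 and 4293 in the mutants and at 5854 and 3276 in wild type, and smtnl1 was at 468 and 790 against 320 and 123, with no overlap. Of 13 skeletal muscle genes, 9 were tested and 7 were higher, with sums of 45646 to 55126 against 36036 to 38176 that were mostly ckma, while the fast myosin gene myhz1.1 was between 4 and 18 and mylpfb was at 0 in mutant replicate 2. In bulk tissue, fewer cells of a type and less RNA per cell cannot be told apart. The part of these shifts in the values of the calcium-handling genes was not tested, beyond the comparison with cardiomyocyte genes given further on.

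Of the 8 genes, 5 were higher and 3 lower in the mutants, where 8372 of all 16730 genes tested were higher, and none of the 8 passed the test over all genes. The higher ones were the SERCA pump gene atp2a2a, hrc, casq2, jph2 and ryr2b, by between 1.62 times for atp2a2a and 1.19 times for ryr2b. The lower ones were slc8a1a, atp2a2b and asph, by 1.87, 1.29 and 1.26 times. The genotypes did not overlap at 6 of the 8 genes, 3 higher and 3 lower, where 52.3% of all genes tested did not overlap (26.6% higher and 25.7% lower in the mutants). One of the 8, hrc, had an unadjusted p under 0.05, where 12.8% of all genes tested did. Its p was 0.0488 with the filter on low values and 0.0526 without it (limma).

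**Figure D1:**
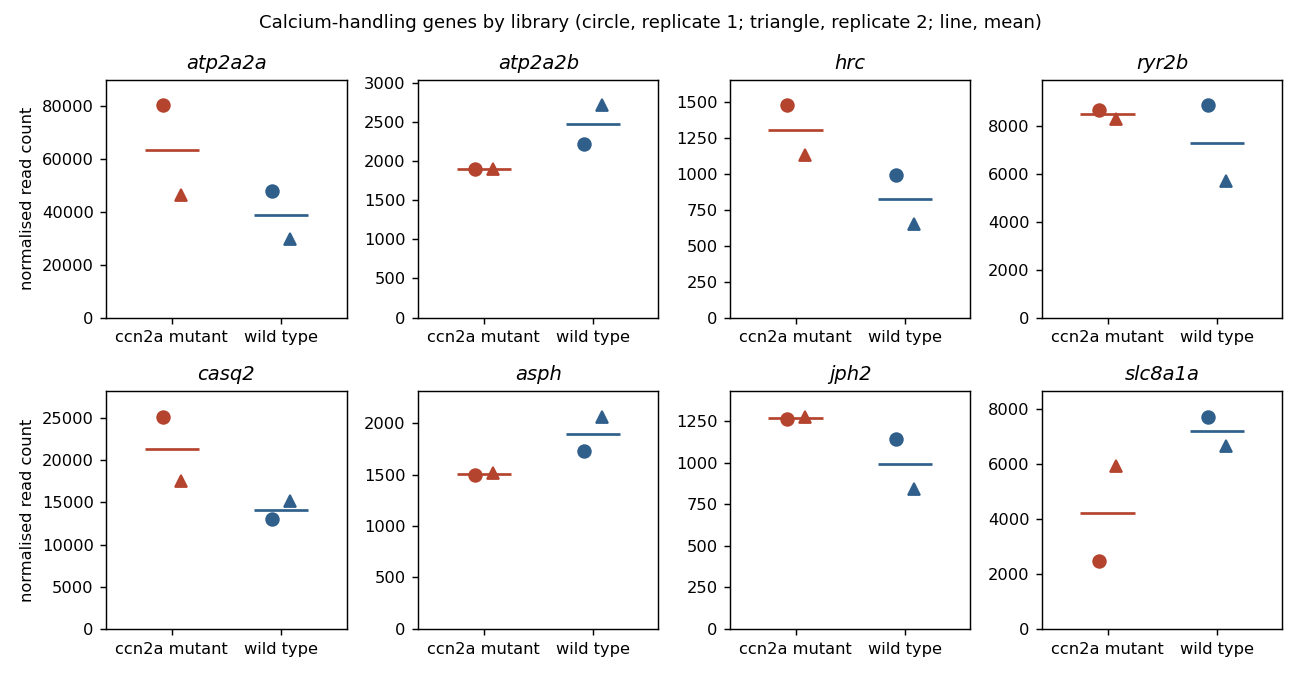
Normalised read counts of the 8 calcium-handling genes in each library, with linear axes from 0, circles for replicate 1, triangles for replicate 2 and lines for the mean of 2 libraries. The genotypes overlap at atp2a2a and ryr2b, and mutant replicate 1 is the lowest point of slc8a1a at 2482.

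The pump genes lie on different chromosomes and their values differed in opposite directions. The cardiac SERCA gene atp2a2a (chromosome 8, 11687254 to 11744994) had normalised read counts of 80466 and 46630 in the mutants and of 47989 and 29736 in wild type. Mutant replicate 1 was the highest and wild-type replicate 2 the lowest, and the genotypes overlapped, because mutant replicate 2 lay just under wild-type replicate 1. The means were 63550 ± 23900 and 38860 ± 12900 (SD, n = 2 each). Its log2 fold change came to 0.70 (SE 0.404, 95% interval -0.29 to 1.69; limma, adjusted p = 0.44). Leaving out mutant replicate 1 gave 0.30 and leaving out wild-type replicate 2 gave 0.35, while leaving out either of the others gave 1.09 and 1.04.

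The paralog atp2a2b (chromosome 21, 17051478 to 17108649) was at 1903 and 1907 in the mutants and at 2225 and 2717 in wild type. The mutant libraries were nearly equal and both lay under wild type. The log2 fold change was -0.37 (SE 0.195, 95% interval -0.85 to 0.11; limma, adjusted p = 0.415), and -0.22 without wild-type replicate 2. Because these are close paralogs, reads that match both genes could have been assigned to either or dropped, and how the counting treated them is not stated in the sources.

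The gene hrc (chromosome 12, 4377624 to 4388704) encodes the histidine-rich calcium-binding protein, which in mammals binds calcium in the reticulum and interacts with the pump and with triadin. It was at 1477 and 1128 in the mutants and at 995 and 649 in wild type. The genotypes did not overlap, and the order of the libraries was the same as for the mitochondrial share. The log2 fold change was 0.68 (SE 0.277; limma, unadjusted p = 0.0488, adjusted p = 0.386). It was 0.38 without wild-type replicate 2 and 0.49 without mutant replicate 1.

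Of ryr2b, casq2, asph and jph2, the release genes among the 8, casq2 had the largest difference. It encodes cardiac calsequestrin, the main calcium buffer inside the reticulum (chromosome 9, 33097289 to 33107237). It was at 25160 and 17578 in the mutants and at 13013 and 15143 in wild type. Both mutants lay above both wild types, and mutant replicate 1 stood well above the other 3 libraries. The means were 21370 ± 5360 and 14080 ± 1510 (SD, n = 2 each), a log2 fold change of 0.58 (SE 0.271, 95% interval -0.08 to 1.25; limma, adjusted p = 0.398). Without mutant replicate 1 it was 0.32.

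The ryanodine receptor gene ryr2b, which encodes the release channel itself (chromosome 17, 20009132 to 20118244), was at 8688 and 8290 in the mutants and at 8872 and 5724 in wild type. Wild-type replicate 1 was the highest of all, so that the difference came from wild-type replicate 2. The log2 fold change was 0.25 (SE 0.266, 95% interval -0.40 to 0.90; limma, adjusted p = 0.646), and it was -0.06 without wild-type replicate 2. The interval includes changes of up to 0.90 upward, so the level of the channel transcript was not shown to be equal.

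Junctophilin 2, the product of jph2, ties the reticulum to the plasma membrane at the junctions where release takes place. The gene (chromosome 23, 35721607 to 35756115) was at 1264 and 1279 in the mutants and at 1143 and 840 in wild type. The mutants were nearly equal and lay above both wild types, which differed from each other by 1.36 times. The log2 fold change was 0.38 (SE 0.221; limma, adjusted p = 0.443), and without wild-type replicate 2 it was 0.15.

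The locus asph gives rise in mammals to aspartate beta-hydroxylase and, from other transcripts, to junctin, which links calsequestrin to the ryanodine receptor. A value per gene does not separate these products. The zebrafish gene (chromosome 2, 26655744 to 26682182) was at 1497 and 1518 in the mutants and at 1734 and 2065 in wild type. The mutants lay close together and under both wild types. The log2 fold change was -0.33 (SE 0.191, 95% interval -0.80 to 0.14; limma, adjusted p = 0.442), and it was -0.20 without wild-type replicate 2.

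The exchanger gene slc8a1a encodes NCX1, the main route of calcium out of the cardiomyocyte (chromosome 11, 30535943 to 30612166). It was at 2482 and 5939 in the mutants and at 7735 and 6679 in wild type. Mutant replicate 1 was far under the other 3 libraries, and mutant replicate 2 was just under the lower wild type. The means were 4210 ± 2440 and 7207 ± 747 (SD, n = 2 each), a log2 fold change of -0.90 (SE 0.412, 95% interval -1.91 to 0.10; limma, adjusted p = 0.395). This was the largest difference of the 8 and rested mostly on 1 library, since leaving out mutant replicate 1 gave -0.28 and leaving out mutant replicate 2 gave -1.53.

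**Figure D2:**
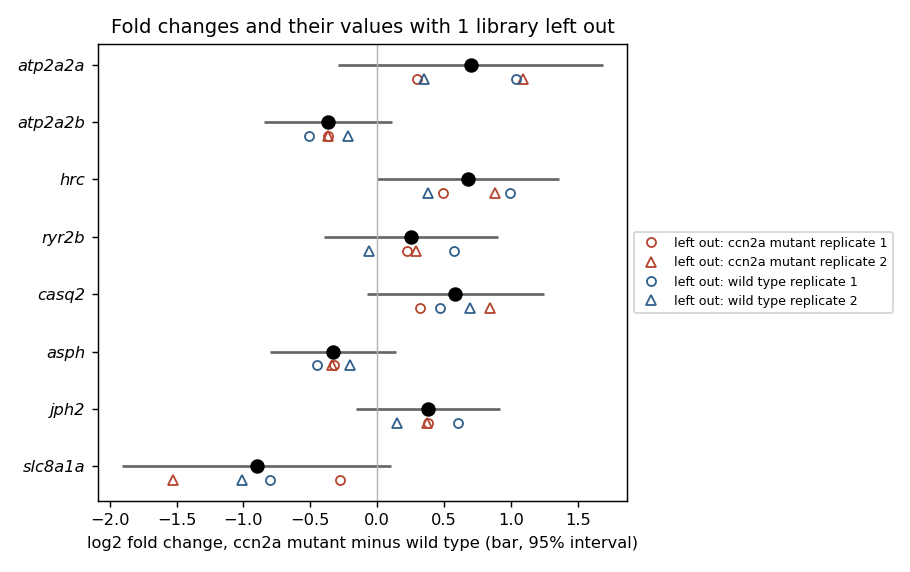
Log2 fold changes of the 8 genes, mutant minus wild type, with 95% intervals (black) and the values with 1 library left out (open symbols). The intervals of 7 genes span 0, that of hrc has its lower bound at 0, and slc8a1a ranges from -1.53 to -0.28.

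The median log2 fold change of the 8 genes was 0.31, against 0.0 for all genes tested, and 4 of the 7 genes matched by symbol were higher, with a median of 0.25. The median rested on the wild-type libraries: it was 0.52 without wild-type replicate 1 and 0.04 without wild-type replicate 2. The 3 lower genes were also lower, and 4 of the 5 higher genes also higher, without each library in turn, the exception being ryr2b. Counting error at the lowest value of each gene came to between 0.505% for atp2a2a and 3.42% for hrc. The mutant replicates of atp2a2b, asph and jph2 differed by less than that error (2.45%, 2.76% and 3.03%).

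The 8 genes did not share one pattern over the libraries. Expressed as log2 deviations from each gene's own mean, atp2a2a ran 0.74 and -0.04 in the mutants and -0.00 and -0.69 in wild type, and hrc ran 0.54, 0.15, -0.03 and -0.65. These genes set mutant replicate 1 and wild-type replicate 2 at the ends, with the other libraries between them. In contrast atp2a2b (-0.19, -0.18, 0.04 and 0.33) and asph (-0.17, -0.15, 0.04 and 0.29) ran nearly alike and set wild-type replicate 2 at the top. The exchanger gene slc8a1a ran -1.08, 0.18, 0.56 and 0.35, with mutant replicate 1 alone at the bottom. The mean of the 8 deviations was nearly flat, at 0.09, 0.03, 0.05 and -0.18.

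Ratios between genes of 1 library do not depend on how the libraries were scaled to each other. The pairs were chosen after the values had been seen, and the sizes of the ratios are not relative levels, because values were not divided by transcript length. Atp2a2a over atp2a2b was 42.3 and 24.5 in the mutants and 21.6 and 10.9 in wild type, higher by 2.09 times. The ratio of atp2a2a to slc8a1a, pump to exchanger, was 32.4 and 7.85 against 6.2 and 4.45, higher by 3.04 times, with mutant replicate 1 far above the rest. The ratio of casq2 to asph was 16.8 and 11.6 against 7.5 and 7.33, higher by 1.88 times. For these 3 ratios, each of a higher gene over a lower one, the genotypes did not overlap. For casq2 over asph this was fixed beforehand, since casq2 was higher and asph lower with no overlap. The exact permutation test (2-sided, n = 2 each) gave p = 0.333, the smallest it allows with 2 against 2. That value follows from the separation and adds nothing to it.

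Among further pairs, the ratio of atp2a2a to ryr2b was 9.26 and 5.62 in the mutants against 5.41 and 5.19, with no overlap, and that of casq2 to ryr2b was 2.9 and 2.12 against 1.47 and 2.65. The ratio of hrc to atp2a2a was 0.0184 and 0.0242 in the mutants and 0.0207 and 0.0218 in wild type, a log2 difference of -0.01 with overlapping groups. The ratio of jph2 to ryr2b was 0.145 and 0.154 against 0.129 and 0.147, a log2 difference of 0.12, also overlapping. Thus the ratio of hrc to atp2a2a was on average nearly equal between genotypes, although the mutants held both its lowest and its highest value. The ratio of atp2a2a to atp2a2b was higher in the mutants.

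**Figure D3:**
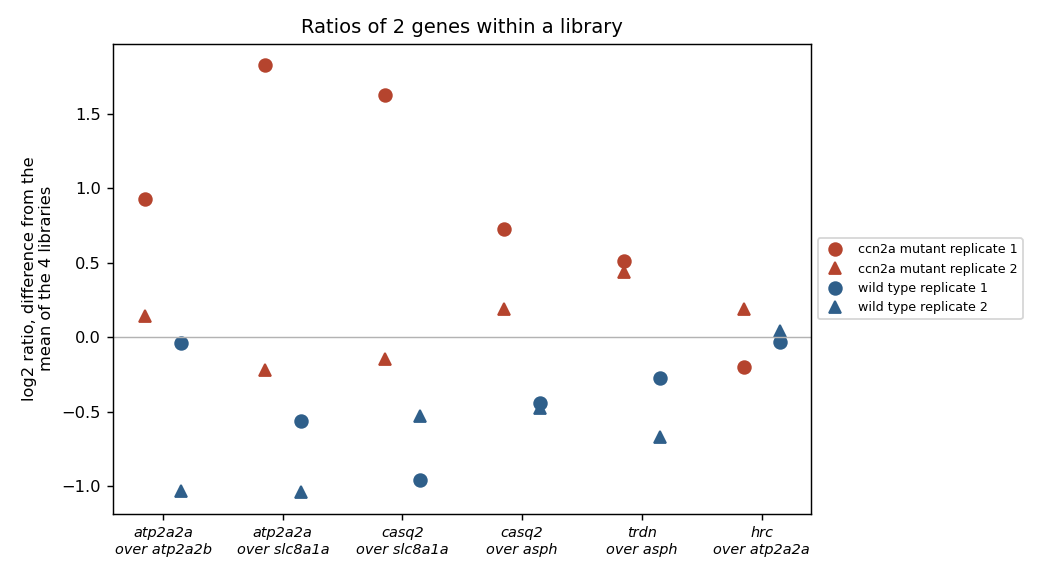
Log2 ratios of gene pairs within each library, as the difference from the mean of the 4 libraries (circles replicate 1, triangles replicate 2). Mutants lie above wild type for atp2a2a over atp2a2b, casq2 over asph and trdn over asph, and all 4 libraries lie near 0 for hrc over atp2a2a. For the pairs with asph this was fixed beforehand, because casq2 and trdn were each higher and asph lower with no overlap.

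Since most genes of the cardiomyocyte list were higher in the mutants, the 8 genes were also set against that list. Each library was shifted so that the mean of 18 cardiomyocyte genes was equal, a list whose log2 difference was 0.20 by its mean and 0.39 by its median. That shift moved the median of all genes to -0.20. As log2 deviations, the list mean was 0.14 and 0.06 in the mutants and 0.18 and -0.38 in wild type. The difference by its mean therefore came from wild-type replicate 2. By the list median, at 0.26 and 0.16 in the mutants and -0.10 and -0.35 in wild type, both wild types lay under both mutants. Relative to these genes, atp2a2a differed by 0.50 and hrc by 0.48, casq2 by 0.38, jph2 by 0.18 and ryr2b by 0.05. On the lower side asph differed by -0.53, atp2a2b by -0.57 and slc8a1a by -1.10. The genotypes did not overlap at these 3 genes, nor at atp2a2a, hrc, jph2 and ryr2b, which lay higher in both mutants, where 39.9% of all genes did not overlap in either direction. At casq2 they overlapped. In this fit, which called 139 of the 16730 genes, none of the 8 passed (limma, smallest adjusted p = 0.194). That fit took 30.0 degrees of freedom from the other genes, against 4.01 on the deposited scale, so its p-values are not comparable with those given above.

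The list holds a second row named actc1a, on chromosome 19, which was at 151 and 101 in the mutants and at 5136 and 159 in wild type. The separation of atp2a2a, hrc, jph2 and ryr2b given above used a list mean that this row raised in wild-type replicate 1. Over the other 17 list genes, the mean log2 value of mutant replicate 2 lay above that of wild-type replicate 1. That gap was larger than the gap between these libraries at atp2a2a, hrc, jph2 or ryr2b. Relative to the 17 genes, mutant replicate 2 therefore lay under wild-type replicate 1 at each of them, and the separation did not hold. By the list median, mutant replicate 2 was at 0.16 and wild-type replicate 1 at -0.10, so a shift by it lowers the first and raises the second. Mutant replicate 2 was already under wild-type replicate 1 at atp2a2a (46630 and 47989) and ryr2b (8290 and 8872). As log2 deviations, the same libraries were at 0.15 and -0.03 for hrc and at 0.20 and 0.03 for jph2, closer together than the list medians. Relative to the list median, atp2a2a, ryr2b, hrc and jph2 were therefore not higher in both mutants. Without that row, left out after its values had been seen, the degrees of freedom from other genes were 6.38, 5 genes were called and none of the 8 among them. The median of all genes was then -0.38, and 3 of the 8 genes lay above 0. Those were atp2a2a at 0.32, hrc at 0.30 and casq2 at 0.20, while jph2 was at -0.00 and ryr2b at -0.13. The lower genes were then at -0.71 for asph, -0.75 for atp2a2b and -1.28 for slc8a1a. The direction of jph2 and ryr2b therefore depended on the scaling, and that of the other 6 did not in these scalings.

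**Figure D4:**
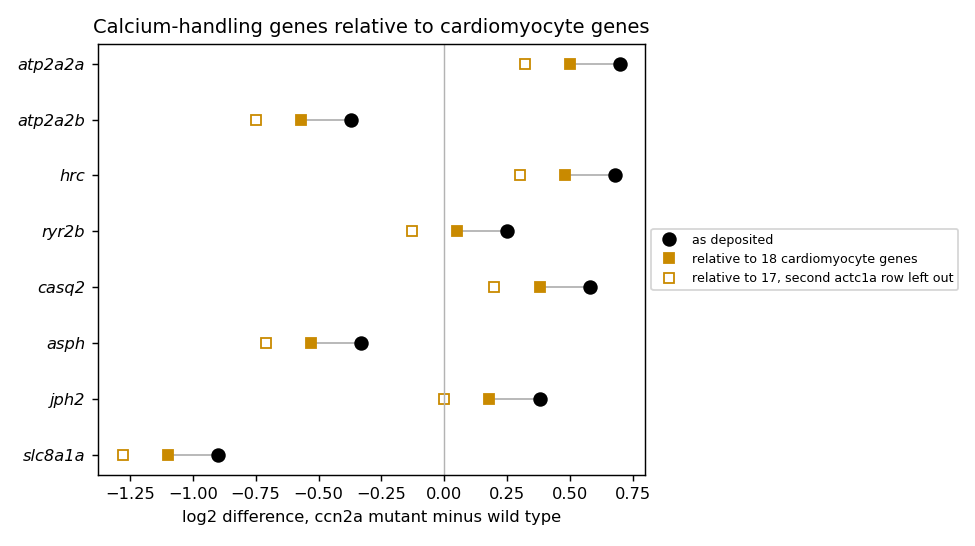
Log2 differences of the 8 genes, mutant minus wild type, as deposited (black), relative to 18 cardiomyocyte genes (filled squares) and relative to 17 of them (open squares). Each scaling moves all genes down by the same amount. The lower genes slc8a1a, atp2a2b and asph therefore lie farther below 0, and ryr2b crosses 0 relative to the 17 genes.

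The wider calcium machinery was read from lists by role, which hold 116 symbols. Of these, 90 were matched and gave 90 genes of the table, of which 82 were tested, 41 higher and 41 lower in the mutants, with a median log2 fold change of -0.01. None passed over all genes, and 6 higher and 7 lower had an unadjusted p under 0.05, where the background was 5.89% higher and 6.93% lower. Without the 8 genes described, the median of the remaining 74 was -0.06. The counts for each role include those of the 8 genes that belong to it.

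Of the 20 tested genes of calcium release and its junctions, 14 were higher and 6 lower (median 0.18). Without the 4 already described the counts were 11 and 5. For all 20 genes without wild-type replicate 2, the counts were 9 and 11 (median -0.02). The triadin gene trdn, whose product anchors calsequestrin to the release channel, was at 1853 and 1785 in the mutants and at 1250 and 1130 in wild type. Replicates were close and the genotypes well apart, with a log2 fold change of 0.61 (SE 0.183; limma, unadjusted p = 0.0154, adjusted p = 0.381). The ratio of trdn to asph was 1.24 and 1.18 against 0.721 and 0.547, apart because trdn was higher and asph lower with no overlap. The gene tmem38a, which encodes a potassium channel of the reticulum, was at 1179 and 797 against 721 and 487. The inositol trisphosphate receptor gene itpr1a went the other way, at 150 and 153 against 223 and 226. Of the other ryanodine receptor genes, named after their values were seen, ryr3 was at 916 and 665 against 603 and 474, and ryr1b was at 430 and 955 against 1120 and 1163. The junctophilin gene jph1a was at 16 and 133 against 212 and 187, with mutant replicate 1 apart as for slc8a1a.

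The other pump genes, atp2a1 (104 and 85 in the mutants against 70 and 83) and atp2a3 (602 and 393 against 441 and 436), had log2 fold changes of 0.30 and 0.15. Among pump regulators the sorcin gene sri was at 1289 and 1707 against 1871 and 1426, with overlapping groups. Of the 8 symbols of that list, only hrc and sri were matched. The symbols pln, plna, plnb and sln were not, so the list leaves those regulators unread. Among release genes ryr2a was not matched either.

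Of 9 exchange and pump genes of the plasma membrane, slc8a1a included, 3 were higher and 6 lower (median -0.27, or -0.09 without wild-type replicate 2). The row atp2b2 (ENSDARG00000044902, currently named atp2b4), a plasma membrane calcium pump gene, was at 1778 and 1756 in the mutants and at 1886 and 2408 in wild type. The pump gene atp2b1b was at 100 and 105 against 81 and 92. The exchanger gene slc8a4b was at 105 and 98 against 106 and 27, so that wild-type replicate 2 set its difference. None of these had an unadjusted p under 0.05.

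Calcium channel genes of the plasma membrane were lower at 9 of 10 (median -0.68), 7 of them with no overlap and 4 with an unadjusted p under 0.05, where 25.7% and 6.93% of all genes were lower by these measures. Without mutant replicate 1 the count was 7 of 10 and the median -0.44, and without mutant replicate 2 all 10 were lower, with a median of -0.98. The auxiliary subunit gene cacna2d1a was at 152 and 300 in the mutants and at 431 and 547 in wild type (log2 fold change -1.18, SE 0.366; limma, adjusted p = 0.381). The gene cacna1c, which encodes the pore of the cardiac L-type channel, was at 56 and 154 against 241 and 183, with mutant replicate 1 under 0.5 times each of the others, as at cacnb1. In that library 4.5% of all genes with a mean of 50 or more were low in this way. The T-type channel gene cacna1g was at 692 and 754 against 1079 and 962, with a log2 fold change of -0.50. A further T-type gene, cacna1ha, named after its values were seen, was at 1 and 1 against 32 and 45, a difference at very low counts. The gene cacna2d2a, named in the same way, was also low, at 3 and 8 against 17 and 23. Both are among the 4 with an unadjusted p under 0.05. Several of these channels are also used by cell types other than cardiomyocytes.

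**Figure D5:**
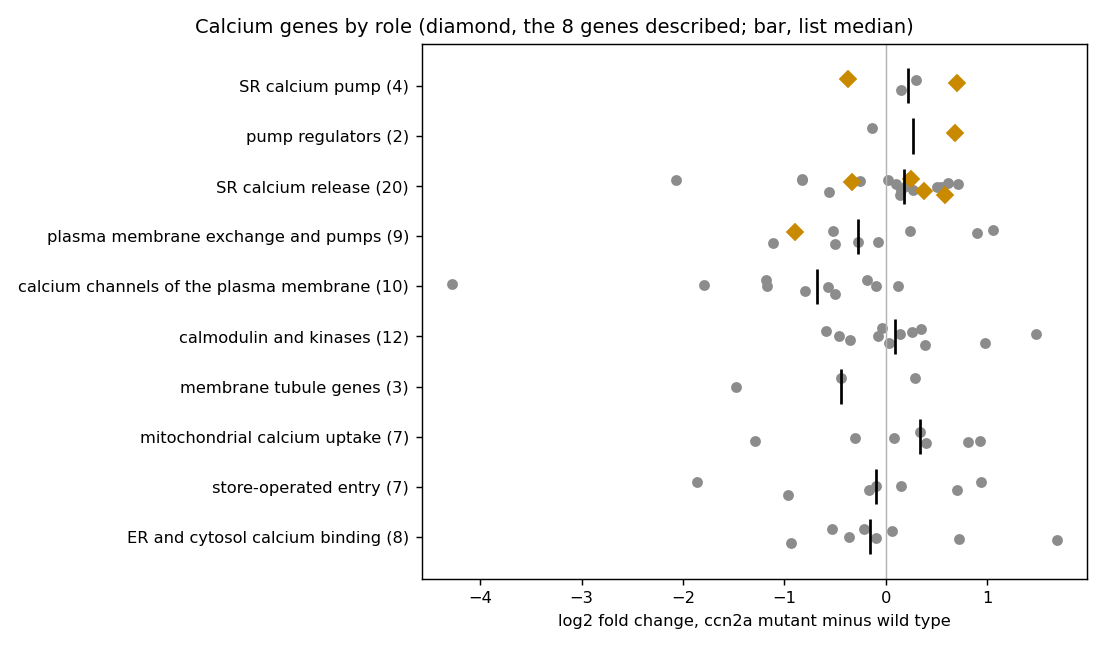
Log2 fold changes of 82 calcium genes in lists by role, mutant minus wild type (SR, sarcoplasmic reticulum; ER, endoplasmic reticulum), with the 8 genes described as diamonds, other genes as dots and the list median as a bar. The channel list has the lowest median, at -0.68, with 9 of 10 genes under 0.

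Among calmodulin and calmodulin-dependent kinase genes, 7 of 12 were higher (median 0.09, or 0.03 without wild-type replicate 2). Their kinases phosphorylate the ryanodine receptor and pump regulators in mammals. The gene camk2a was at 285 and 203 in the mutants and at 131 and 113 in wild type (log2 fold change 0.98, SE 0.291; limma, adjusted p = 0.381). The gene camk2d2 was at 1523 and 802 against 634 and 245 (1.48, SE 0.512), and camk2g2 was at 1415 and 1237 against 1032 and 989. All 3 had mutants above wild type with no overlap, but they were named for the smallest p of the list. Of the 12 genes, 6 were higher and 3 lower with no overlap, where 26.6% and 25.7% of all genes tested were.

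Store-operated entry genes were mixed, with 3 of 7 higher (median -0.10), and 4 of 7 without mutant replicate 1 (median 0.26). The plasma membrane channel gene orai1a was at 850 and 752 against 609 and 395, and the reticulum calcium sensor gene stim2a at 71 and 63 against 36 and 33. The sensor gene stim1b was at 40 and 69 against 83 and 131, and the channel gene orai1b, named after its values were seen, at 6 and 27 against 42 and 59. These 4 of the 7 had no overlap, against 52.3% of all genes. Of the genes of mitochondrial calcium uptake, 5 of 7 were higher (median 0.34, or 0.12 without mutant replicate 1). The uniporter regulator genes micu3b and micu3a were at 94 and 114 against 80 and 36 and at 77 and 71 against 54 and 32. The inner-membrane cation carrier gene letm1 was at 97 and 370 against 364 and 594, low in mutant replicate 1.

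Of 8 calcium-binding genes of the endoplasmic reticulum and cytosol, 5 were lower. The calreticulin gene calr3b was at 1822 and 2077 in the mutants and at 3043 and 4611 in wild type (log2 fold change -0.94, SE 0.254; limma, unadjusted p = 0.00976, adjusted p = 0.381). The related calr3a was at 4107 and 4853 against 5396 and 7672. Of the troponin C genes, tnnc1b was at 2342 and 1100 against 1542 and 617, with overlap. Among membrane tubule genes, bin1b, of the amphiphysin family, was at 25 and 64 against 103 and 126. The dysferlin gene dysf was at 1087 and 1793 against 1913 and 1867, and the caveolin gene cav3 was at 919 and 802 against 807 and 607.

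A further description used the pathway terms of the deposited table. The calcium signalling term covered 3 of the 8 genes, atp2a2a, atp2a2b and slc8a1a. Of 131 tested genes with that term, 67 were higher and 64 lower (median 0.02). Of 63 tested genes with the cardiac muscle contraction term, which held none of the 8, 43 were higher and 20 lower (median 0.33).

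The genes most like the mean profile of the 8 were sought among 2488 genes with a mean of 1000 or more, by the root-mean-square distance of log2 deviations over the 4 libraries. The nearest were grnb (0.020), ube2ia (0.026) and fkbp1aa (0.027), all nearly flat. The last, which encodes a binding protein of the ryanodine receptor family, was at 4513 and 4150 in the mutants and at 4335 and 3759 in wild type. Of the 8 genes themselves, jph2 (0.149) and ryr2b (0.156) lay nearest to their shared mean and slc8a1a (0.693) farthest from it.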

How the data were processed

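Poly(A) RNA was sequenced with a stranded kit from 2.2 µg of total RNA per library, per the labels' protocols. The submitters' processing notes list STAR (2.4.0a), Subread, featureCounts (1.4.5-p1) and DESeq2 (1.6.2) without settings; whether counting used strand is not stated there. The deposited whole-number values were treated as a score, a read count divided by the authors' size factor and rounded. The size factor, 0.874 and 0.946 for the mutants and 0.952 and 1.32 for wild type, was recovered from the spacing of low values and checked on simulated data; it gives the approximate depth. The notes name GRCz10 (danRer10), but the table's largest coordinate on chromosome 4, 78048911, lies beyond that chromosome's end in GRCz10, so coordinates are copied from the table and their build is uncertain.

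The comparison of genotypes used limma-trend (limma 3.58.1, R 4.3.3) on log2(value + 1), on genes with a mean of 10 or more, with no block, and 2-sided p-values were adjusted over all 16730 genes with the Benjamini-Hochberg method (threshold 0.05). In that fit each gene had 2 residual degrees of freedom plus 4.01 from the others. Fold changes are on that log2 scale. The fit was tested on simulated data. Named role genes are up to 3 per list with the smallest p and a mean of 50 or more. The genes and lists were chosen with earlier results of these data known. Figures used Python 3.11.15 and matplotlib 3.10.9.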

Additional observations from a re-analysis of the deposited data

How the results depend on the processing

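All 8 genes stayed short of the threshold under each alternative run, and the count of genes called over the whole table was 0 in every fit but those scaled to cardiomyocyte genes, where it was 139 with all list genes (30.0 degrees of freedom from other genes) and 5 without the second actc1a row (6.38), none of them among the 8. The log2 fold changes of 7 genes kept their direction in 11 alternatives each, which do not include the scaling without the second actc1a row. In these 11, that of ryr2b ranged from -0.06 without wild-type replicate 2 to 0.57 without wild-type replicate 1. In the scaling without that row, ryr2b was at -0.13 and jph2 at -0.00. The median of the 8 genes, 0.31 as reported, was 0.17 under quantile normalisation, 0.13 with library totals equal apart from mitochondrial transcripts, which moved the median of all genes to -0.18, and 0.11 under cardiomyocyte scaling; with 1 library left out it ranged from 0.04 to 0.52. The median relative to cardiomyocyte genes, 0.11, was -0.07 without the second actc1a row. The median of all role lists, -0.01, was 0.12 with a filter at a mean of 50 and -0.19 with mitochondrial transcripts left out of the totals. The mitochondrial and cardiomyocyte settings rescale whole libraries. The medians given for them therefore moved together with that of all genes, which went to -0.18 and -0.20. The cause of the other shifts was not tested. With the replicate number as a block, added although nothing says that the numbers pair libraries, 0 genes passed (2655 at an unadjusted p under 0.05, against 2145) and the median of the 8 genes was again 0.31; deviations of same-numbered libraries had r = 0.004 across genes. The number of genes with an unadjusted p under 0.05 fell without wild-type replicate 2 or mutant replicate 1. It rose without mutant replicate 2 or wild-type replicate 1. With 1 library in a genotype, that library is assumed to vary like the other genotype. Counting error was 3.42% or less for the 8 genes, against 26.7% for jph1a and 21.4% for bin1b at their lowest values. The mutant libraries differed by more than that error, by 8.31 times at jph1a and 2.56 times at bin1b.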

Other observations

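The low value of slc8a1a in mutant replicate 1 had counterparts among other calcium genes. Of 66 genes of the role lists with a mean of 50 or more, 8 were in mutant replicate 1 at less than 0.5 times the lowest of the other libraries. These were slc8a1a, jph1a, ryr1b, itpr2, cacna1c, cacnb1, letm1 and bin1b. The same held for 0 genes in mutant replicate 2, for 1 in wild-type replicate 1 (itpr3) and for 3 in wild-type replicate 2 (camk2d2, slc8a4b and micu3b). Over all 13022 genes with such a mean, the share low in this way was 4.5% in mutant replicate 1 and 0.253% in mutant replicate 2, against 0.0922% and 3.06% in the wild-type libraries. These counts describe the libraries and were made after the values had been seen.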
